A study of Homo sapiens with 4 samples.

Results

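The AP-1 transcription factor subunits were taken as the rows of the deposited count table whose gene name was FOS, FOSB, FOSL1, FOSL2, JUN, JUNB, JUND or ATF3, which gave 8 genes of 60617 in the table. All 8 passed the filter on low counts and were tested. PolyA RNA was sequenced from SCC13, a human line derived from a cutaneous squamous cell carcinoma, with a genotype given as WT in the labels. One group carried a lentiviral shRNA against the RNA-binding protein CELF2 (CELF2 knockdown), and the other a lentiviral scrambled shRNA (control shRNA). Each group had 2 libraries. The sources used here do not say whether both knockdown libraries carried 1 shRNA sequence or whether replicates were separate cultures, so the p-values cover the spread between these libraries and may reflect technical spread alone.

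AP-1 is a dimer of basic leucine zipper proteins that binds the palindromic site TGACTCA and its longer relative TGACGTCA. JUN proteins pair with each other or with FOS proteins, whereas FOS proteins need a JUN partner to bind DNA. Growth factors, stress and wounding act on AP-1 through MAP kinases, and in keratinocytes AP-1 controls genes of proliferation, migration and terminal differentiation. Many of the AP-1 subunit genes are immediate early genes, whose mRNAs appear within minutes of a stimulus and decay quickly.

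The libraries held 19928788 and 23177056 counts in CELF2 knockdown, and 27898889 and 17649090 counts in control shRNA. CELF2 itself had 0 and 0 counts in CELF2 knockdown and 1 and 0 counts in control shRNA, and so gives no check of the knockdown. The keratinocyte markers KRT5 and KRT14 were high in every library, KRT5 at 6704 CPM or above in CELF2 knockdown and 5461 CPM or above in control shRNA. Of the markers of other cell types, the immune list summed to 10.7 and 2.19 CPM in CELF2 knockdown, against 1.29 and 0.416 CPM in control shRNA, mostly CD14, with PTPRC, CD3E, CD2 and NKG7 at 0 counts throughout. The fibroblast list summed to 65.5 and 37.1 CPM in CELF2 knockdown, against 37.1 and 34.99 CPM in control shRNA. This was mostly COL1A1 (37.5 and 20.7 CPM in CELF2 knockdown, 13.1 and 16.1 CPM in control shRNA) and FAP. FAP had 27.3 and 16.0 CPM in CELF2 knockdown and 23.8 and 18.7 CPM in control shRNA, with COL1A2, COL3A1, DCN, LUM and THY1 at 0. Melanocyte and endothelial lists stayed below 10 CPM in each library, with MLANA, TYR, TYRP1 and SOX10 at 0 and no endothelial gene above 24 counts in a library. The melanocyte sum was mostly MITF and PMEL. The edgeR test called 0 of 11 tested keratinocyte markers, against 0.877% of all tested genes, and gave 1 an unadjusted p below 0.05, against 22.1%. DESeq2 called 1 marker, against 1386 of 13993 genes, and limma-voom called 0. In 5 of the 11 markers (45.5%) both knockdown libraries were above both control libraries and in 0 below, against 27.1% and 27.8% of all tested genes. The median log2 fold change of the 11 was 0.42. Smallest in p were the desmosomal DSG3 (log2 fold change 1.04 ± 0.22, SE), SFN (0.64 ± 0.30) and CDH1 (0.43 ± 0.19). None of the tested markers of other cell types, COL1A1, PDGFRB, FAP, PMEL, MITF, VWF and CD14, passed the edgeR test. In it 1 fibroblast, 1 endothelial and 1 immune marker had an unadjusted p below 0.05. DESeq2 called 1 fibroblast and 1 immune marker, and limma-voom called 0. The part of the DSG3, CD14 and COL1A1 differences in the results below was not tested.

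The promoters of the JUN genes are shown because these genes stood higher in CELF2 knockdown in both libraries. Each line gives the 250 bases before the RefSeq transcript start (GRCh38.p14), 5′ to 3′ along the gene's strand. Distances are counted from that start, which can differ from the GENCODE v29 gene ends given below. The JUN window lies inside the single JUN exon of GENCODE v29 (58780788 to 58784327). Capitals mark matches to TGACTCA, TGACGTCA, TGACATCA, the shorter form TGACGT or the CCAAT box, on either strand. JUNB lies at chr19:12791236-12791485 (plus strand), JUN at chr1:58784048-58784297 (minus strand) and JUND at chr19:18281623-18281872 (minus strand).
JUNB: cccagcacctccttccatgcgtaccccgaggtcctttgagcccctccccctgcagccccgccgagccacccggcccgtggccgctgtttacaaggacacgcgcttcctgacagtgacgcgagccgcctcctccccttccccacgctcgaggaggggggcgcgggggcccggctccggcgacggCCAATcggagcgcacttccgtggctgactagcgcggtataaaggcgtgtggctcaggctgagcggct
JUN: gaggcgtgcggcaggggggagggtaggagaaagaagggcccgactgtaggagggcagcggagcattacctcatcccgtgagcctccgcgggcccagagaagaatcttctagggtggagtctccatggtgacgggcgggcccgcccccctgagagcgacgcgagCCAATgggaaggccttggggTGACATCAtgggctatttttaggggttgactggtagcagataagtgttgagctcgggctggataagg
JUND: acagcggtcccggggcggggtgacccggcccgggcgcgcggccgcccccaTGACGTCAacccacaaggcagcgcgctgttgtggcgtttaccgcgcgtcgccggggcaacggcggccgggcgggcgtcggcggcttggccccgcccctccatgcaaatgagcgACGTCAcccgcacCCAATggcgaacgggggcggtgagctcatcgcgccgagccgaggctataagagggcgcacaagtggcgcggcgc

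JUN carried TGACATCA, the variant AP-1 site of its own promoter, 67 bases before the start. Of the 2 RefSeq windows of ATF3, 1 also held TGACATCA, 123 bases before its start, and CCAAT on the opposite strand, 25 bases before it. The other ATF3 window held none of the letters searched. JUND carried TGACGTCA 200 bases before the start and TGACGT on the opposite strand 87 bases before it, and each TGACGTCA also counts as TGACGT on both strands. JUNB held none of the AP-1 letters searched in this window. A CCAAT box was present in all 3 JUN genes, 67, 87 and 74 bases before the start of JUNB, JUN and JUND. Of 35116 promoter windows of this length, 2.38% held TGACATCA, 1.65% TGACGTCA, 7.10% TGACGT, 4.20% TGACTCA and 32.0% CCAAT. A match is a run of letters only, and absence says only that the letters are not in the window.

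For comparison, the window from 90 to 31 bases before the start is given for 3 FOS genes, since each holds TGACGT at nearly the same distance. FOS lies at chr14:75278738-75278797, FOSB at chr19:45467906-45467965 and FOSL2 at chr2:28392768-28392827, all on the plus strand. By GENCODE v29, FOS starts at 75278774, inside its window, and FOSL2 at 28392448, before its window.
FOS: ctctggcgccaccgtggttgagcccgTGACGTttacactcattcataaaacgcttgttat
FOSB: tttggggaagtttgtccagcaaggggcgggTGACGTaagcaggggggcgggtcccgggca
FOSL2: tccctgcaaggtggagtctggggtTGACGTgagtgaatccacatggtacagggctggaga

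TGACGT began 64, 60 and 66 bases before the start of FOS, FOSB and FOSL2. In FOS this is the known cyclic AMP response element upstream of the TATA box. RefSeq windows were matched for 7 of the 8 genes.

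Both knockdown libraries lay above both control libraries for each of the 3 JUN genes and for FOSL2, whereas FOS, FOSB, FOSL1 and ATF3 overlapped between groups, and no subunit passed the test over all genes. With edgeR's quasi-likelihood test and Benjamini-Hochberg adjustment at 0.05, 0 of 8 subunits were called, against 0.877% of all 15170 tested genes. At an unadjusted p below 0.05 the edgeR test gave 4 of 8 subunits (JUNB, JUND, JUN and FOSL2), all higher, against 22.1% of all tested genes (12.1% in the higher direction). DESeq2 called 3 (JUNB, JUN and JUND), against 1386 of the 13993 genes to which it gave an adjusted p, and limma-voom called 0. The CPM of 4 subunits was higher in both knockdown libraries than in either control library and of 0 subunits lower, against 27.1% and 27.8% of all tested genes. The median log2 fold change was 0.72 over the 8 subunits and 0.90 over the 3 JUN genes, beside -0.00356 over all tested genes.

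**Figure D1:**
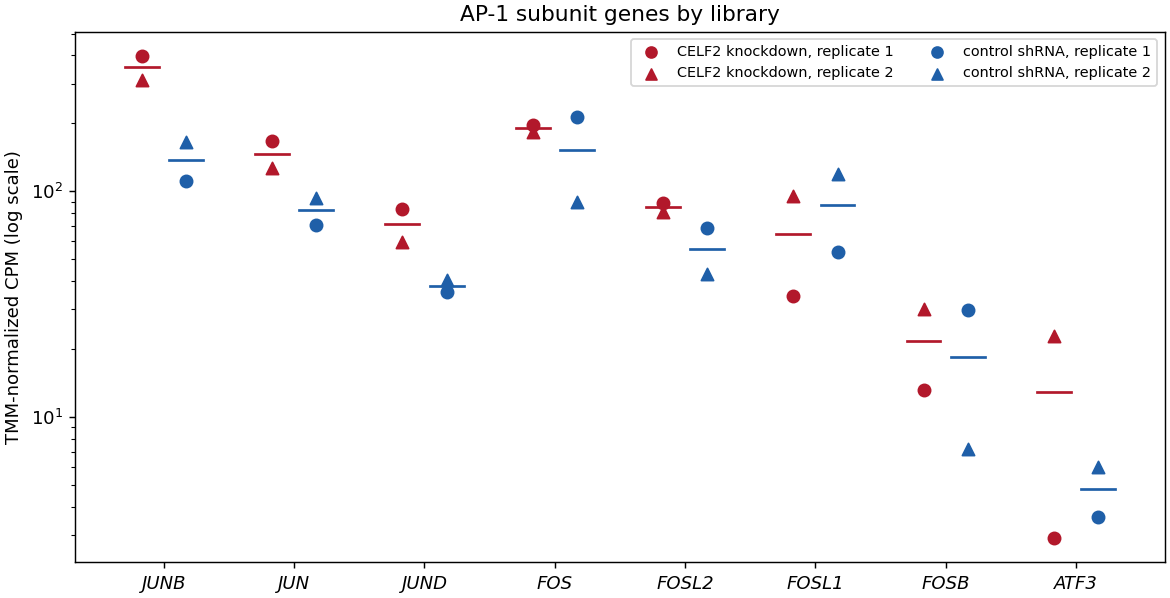
TMM-normalized CPM (log scale) of the 8 AP-1 subunit genes in each library, CELF2 knockdown in red and control shRNA in blue, circles for replicate 1, triangles for replicate 2 and lines for the mean of 2 libraries. JUNB, JUN, JUND and FOSL2 do not overlap between groups, whereas ATF3 ranges from 2.91 to 22.9 CPM within CELF2 knockdown.

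JUNB encodes a JUN protein with weaker transactivation than JUN, often described as restraining proliferation. Its gene (ENSG00000171223, chromosome 19, 12791496 to 12793315, plus strand, 1 exon, GENCODE v29 on GRCh38) had 396 and 311 CPM in CELF2 knockdown, against 111 and 165 CPM in control shRNA. The lower knockdown library thus stood well above the higher control library. The log2 fold change was 1.36 ± 0.24 (SE), a 2.56-fold difference, with an adjusted p of 0.0518 (edgeR), just over the threshold. It ranked 164 by p among all tested genes. Leaving out control replicate 1 gave 1.09 (adjusted p = 0.184) and leaving out knockdown replicate 2 gave 1.52 (adjusted p = 0.107), neither of which passes. Leaving out control replicate 2 gave 1.68 (adjusted p = 0.0145) and leaving out knockdown replicate 1 gave 1.18 (adjusted p = 0.0452), both of which pass.

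JUNB shares 259 exonic bases with HOOK2 on the opposite strand, and no source used here gives the strand setting of the counting, so its count is uncertain. HOOK2, a microtubule linker protein, had 29.1 and 18.4 CPM in CELF2 knockdown and 28.1 and 21.9 CPM in control shRNA (log2 fold change -0.080 ± 0.27, adjusted p = 0.889, edgeR). The mean of JUNB was 354 ± 60.4 CPM in CELF2 knockdown and 138 ± 38.2 CPM in control shRNA (SD, n = 2 each). Reads in the shared bases were not counted separately here, and their part in the JUNB difference was not tested.

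JUN encodes c-Jun, the main target of the JNK kinases and the founding member of the complex. The gene (ENSG00000177606, chromosome 1, 58780788 to 58784327, minus strand, 1 exon) had 167 and 127 CPM in CELF2 knockdown, against 71.1 and 93.3 CPM in control shRNA. The groups did not overlap. The log2 fold change of 0.84 ± 0.21 (SE) did not pass (adjusted p = 0.0837, edgeR).

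JUND, the JUN protein that is expressed most steadily in resting cells, lies on chromosome 19 (ENSG00000130522, 18279760 to 18281622, minus strand, 1 exon). It had 83.2 and 59.5 CPM in CELF2 knockdown, against 35.7 and 40.5 CPM in control shRNA. The control libraries were close to each other and both lay below the knockdown libraries. JUND did not pass, with a log2 fold change of 0.90 ± 0.21 (SE; adjusted p = 0.0744, edgeR). All 3 JUN genes are intronless and rich in G and C: their transcripts are 64.9% (JUNB), 56.7% (JUN) and 69.7% (JUND) GC, above 95.9%, 74.0% and 99.6% of tested genes. With offsets for GC content the log2 fold change of JUND was 0.52 (adjusted p = 0.102), that of JUN 0.70, and that of JUNB 1.08 (adjusted p = 0.0409, which passes).

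The JUN transcript also holds a GU-rich element in its 3′ UTR, shown because CELF1, a relative of CELF2 with known activity in mRNA decay, binds such elements. The element GTTTGTTTG occurs 2 times there, overlapping, and the pair starts at base 596 after the stop codon of a 1287-base 3′ UTR in GENCODE v29 (capitals).
JUN: atttcttGTTTGTTTGTTTGggtatcct

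On the transcript strand GTTTGTTTG was found in no other subunit, and in 2.44% of the 1678 tested genes whose 3′ UTR was within 20% of the length of that of JUN. Of the AU-rich pentamer ATTTA, which marks unstable mRNAs, FOS had 5 copies in 806 bases, and 7.74% of 1395 tested genes of similar 3′ UTR length had at least as many. JUNB had 2 copies in 500 bases, JUN 3 in 1287, JUND 1 in 681, FOSL1 1 in 666, FOSB 3 in 2166, ATF3 3 in 1222 and FOSL2 9 in 4864. For these other subunits, 23.4% (JUNB) to 68.1% (FOSB) of tested genes of similar 3′ UTR length had at least as many. The pentamer was present in 49.8% (JUNB) to 99.1% (FOSL2) of the genes of similar length. Whether these letters bear on the levels was not tested.

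FOS encodes c-Fos, the classic immediate early partner of JUN. The gene (ENSG00000170345, chromosome 14, 75278774 to 75282230, plus strand, 4 exons) had 196 and 184 CPM in CELF2 knockdown, against 214 and 89.8 CPM in control shRNA. The knockdown libraries were nearly equal and lay between the control libraries, which differed 2.39-fold from each other. FOS had a log2 fold change of 0.32 ± 0.36 (SE; adjusted p = 0.637, edgeR), with 1.08 without control replicate 1, but -0.16 without control replicate 2.

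FOSB, a close paralog of FOS whose short splice form accumulates on repeated stimulation, had 13.2 and 30.2 CPM in CELF2 knockdown, against 29.7 and 7.19 CPM in control shRNA (ENSG00000125740, chromosome 19, 45467995 to 45475179, plus strand). Knockdown replicate 2 and control replicate 1 shared the high level. The control libraries differed 4.14-fold, a wider gap on the log2 scale than that of 99.0% of tested genes. The log2 fold change was 0.22 ± 0.62 (SE; adjusted p = 0.867, edgeR), which is smaller than its error. It was -0.50 without knockdown replicate 2, -0.44 without control replicate 2 and 1.59 without control replicate 1.

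FOSL1 encodes FRA1, a FOS protein without a strong transactivation domain that is associated with migration and invasion of carcinoma cells. It had 34.4 and 94.8 CPM in CELF2 knockdown, against 54.0 and 119 CPM in control shRNA (ENSG00000175592, chromosome 11, 65892049 to 65900573, minus strand). Replicate 2 was the higher library in both groups, by 2.75-fold in CELF2 knockdown and 2.21-fold in control shRNA. The log2 fold change was -0.42 ± 0.50 (SE; adjusted p = 0.666, edgeR), the only negative value among the 8 subunits with all libraries, and it was 0.28 without control replicate 2 and 0.14 without knockdown replicate 1.

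FOSL2 encodes FRA2, a related FOS protein that in mouse skin has been tied to epidermal differentiation. It had 89.2 and 81.1 CPM in CELF2 knockdown, against 68.5 and 42.8 CPM in control shRNA (ENSG00000075426, chromosome 2, 28392448 to 28417312, plus strand). It was the FOS gene whose groups did not overlap. Its log2 fold change was 0.61 ± 0.24 (SE; adjusted p = 0.194, edgeR), with 0.33 without control replicate 2 and 0.98 without control replicate 1.

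ATF3, a stress-induced repressor that also dimerizes with JUN proteins, had 2.91 and 22.9 CPM in CELF2 knockdown, against 3.61 and 6.0 CPM in control shRNA (ENSG00000162772, chromosome 1, 212565334 to 212620777, plus strand). Knockdown replicate 1 was the lowest of the 4 libraries and knockdown replicate 2 the highest. These 2 knockdown libraries differed 7.85-fold, a wider gap on the log2 scale than that of 99.9% of tested genes. The log2 fold change of 1.44 ± 0.80 (SE; adjusted p = 0.337, edgeR) therefore rests on 1 library: it was -0.72 without knockdown replicate 2 and 2.27 without knockdown replicate 1 (adjusted p = 0.0140, which passes).

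**Figure D2:**
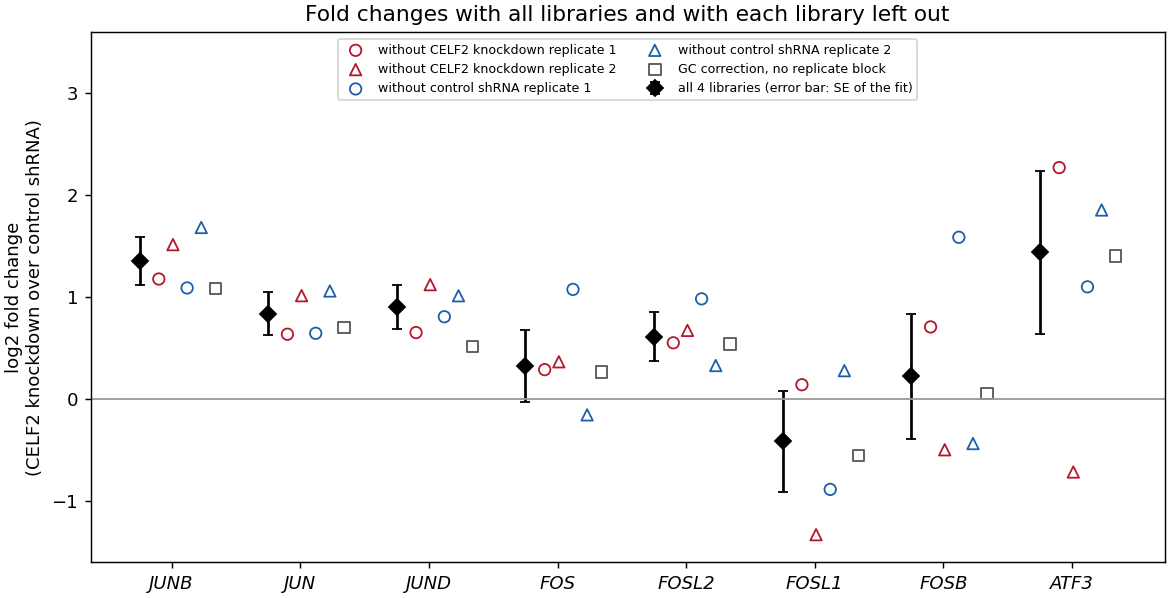
Log2 fold change of each AP-1 subunit gene (CELF2 knockdown over control shRNA) with all 4 libraries (black, with the SE of the fit), with each library left out in turn (open circles and triangles) and after GC correction (open squares). The JUN genes and FOSL2 stay above 0 in all of these, whereas FOS, FOSB, FOSL1 and ATF3 cross 0 with some library left out.

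Between the control libraries each of the 4 FOS genes had a wider gap than any of the 3 JUN genes, a difference that was not tested. The absolute log2 gap between the control libraries had a median of 1.20 over the 4 FOS genes and 0.39 over the 3 JUN genes, beside 0.24 over all tested genes. Between the knockdown libraries it was 0.66 and 0.39, beside 0.28, but the FOS genes were split: FOSB and FOSL1 had wider gaps than every JUN gene, and FOS and FOSL2 narrower ones. The libraries with high values were not the same for each gene: control replicate 1 was above control replicate 2 for FOS, FOSB and FOSL2, and below it for JUNB, JUN, JUND, FOSL1 and ATF3.

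Scaled by exon length, JUNB transcripts were the most abundant of the subunits in 3 of the 4 libraries. Exon length here is the union of exons over all isoforms of a gene. For the JUN genes it equals the length of the transcript used for GC content, but it is longer for the other subunits. It was 3238 bases for FOS against a transcript of 2158, 5553 against 3775 for FOSB and 4040 against 2033 for ATF3. Levels of these genes are thus lowered against the JUN genes. JUNB stood at 218 and 171 CPM per kb of exon in CELF2 knockdown, against 61.1 and 90.8 CPM per kb in control shRNA. FOS, at 60.7 and 56.8 CPM per kb in CELF2 knockdown and 66.1 and 27.7 CPM per kb in control shRNA, led JUNB in control replicate 1. JUN (47.0 and 35.9 CPM per kb in CELF2 knockdown, 20.1 and 26.4 in control shRNA), JUND (44.6 and 31.9 in CELF2 knockdown, 19.2 and 21.7 in control shRNA) and FOSL1 (18.3 and 50.3 in CELF2 knockdown, 28.6 and 63.2 in control shRNA) overlapped in level with each other within each group, except that both control libraries of FOSL1 were above those of JUN and JUND. FOSL2 followed at 12.5 and 11.3 CPM per kb in CELF2 knockdown and 9.57 and 5.99 CPM per kb in control shRNA, and FOSB and ATF3 were at 5.66 CPM per kb or below in every library.

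The JUN genes together summed to 309 and 239 CPM per kb in CELF2 knockdown, against 100.3 and 139 CPM per kb in control shRNA. The FOS genes summed to 93.8 and 124 CPM per kb in CELF2 knockdown, against 109.7 and 98.2 CPM per kb in control shRNA. The JUN sums did not overlap between groups, and the FOS sums did. The ratio of JUN over FOS transcripts depends on this exon union scale, which lowers the FOS genes. It was 3.30 and 1.93 in CELF2 knockdown, against 0.915 and 1.41 in control shRNA. Within the JUN genes JUNB made up 70.4% and 71.6% in CELF2 knockdown, against 60.9% and 65.4% in control shRNA. Within the FOS genes the share of FOSL1 was 19.5% and 40.6% in CELF2 knockdown, against 26.1% and 64.3% in control shRNA, and the share of FOS was 64.7% and 45.9% in CELF2 knockdown, against 60.3% and 28.2% in control shRNA. In this bulk RNA, a change in the share of cells with a transcript and a change in the amount per cell cannot be told apart.

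**Figure D3:**
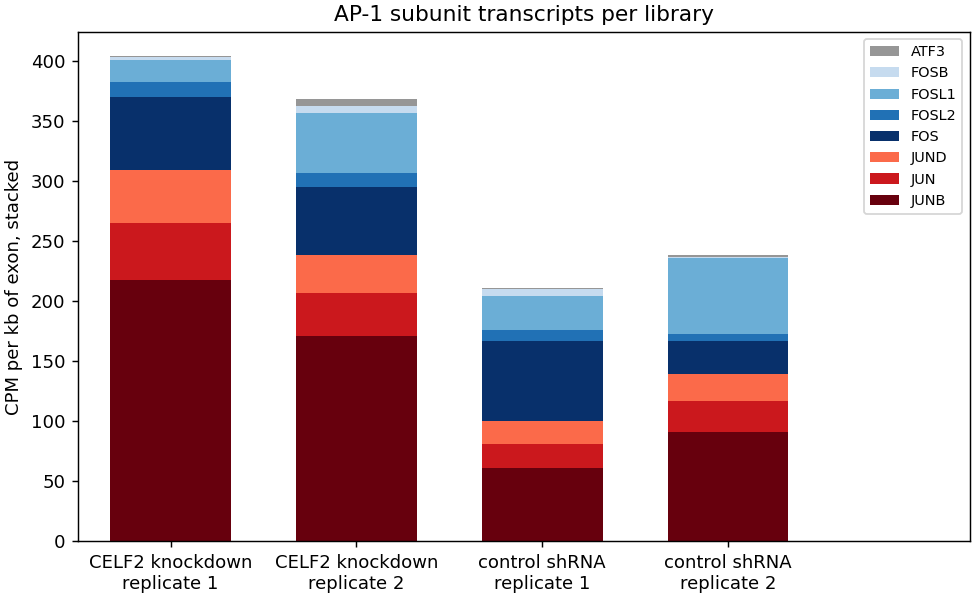
CPM per kb of exon of the 8 AP-1 subunit genes, stacked for each library, with JUN genes in reds, FOS genes in blues and ATF3 in grey. The 2 knockdown libraries on the left sum to 404 and 368 CPM per kb and the 2 control libraries to 211 and 239 CPM per kb, and most of the gap lies in JUNB.

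Over the 4 libraries, 5 genes followed the pattern of JUNB most closely by Euclidean distance between centred log2 CPM profiles, out of 10919 genes averaging 5 CPM or more. These were MRAS, a RAS-related GTPase (distance 0.0875), DYRK1B, a protein kinase (0.0883), the gene listed as AC080038.1 (0.124), TMEM74B (0.135) and JAK3, a cytokine receptor kinase (0.137). With 4 libraries many genes share such a shape, and none of the 5 passed the edgeR test (adjusted p from 0.0619 to 0.0818). MRAS had 15.0 and 11.8 CPM in CELF2 knockdown and 4.43 and 6.12 CPM in control shRNA. By the same distance JUN was 198th and JUND 217th from JUNB, whereas FOSL2 was 1949th and FOS 6097th.

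Of the other basic leucine zipper factors, 1 of 29 tested genes rose, 0 fell and 28 did not pass (edgeR; 10 at an unadjusted p below 0.05, 5 by DESeq2 and 0 by limma-voom), against 0.877% of all tested genes called and 22.1% at an unadjusted p below 0.05. DESeq2 called 1386 of 13993 genes over the whole table. The median log2 fold change of the 29 factors was 0.29. In 11 of them (37.9%) both knockdown libraries were above both control libraries and in 3 below, against 27.1% and 27.8% of all tested genes. CEBPD, a C/EBP factor of inflammation and growth arrest, rose to 40.6 and 31.2 CPM in CELF2 knockdown, against 12.98 and 14.7 CPM in control shRNA (log2 fold change 1.38 ± 0.22, SE; adjusted p = 0.0483, edgeR). MAF, which promotes epidermal differentiation, had 7.90 and 3.12 CPM in CELF2 knockdown, against 0.751 and 0.535 CPM in control shRNA (adjusted p = 0.0548). JDP2, a repressor that dimerizes with JUN, had a log2 fold change of 1.04 ± 0.33 and was chosen after its values were seen; it overlaps exons of AF111167.2 on the opposite strand, so its count is uncertain. The call of CEBPD was lost without control replicate 1 (adjusted p = 0.181), without knockdown replicate 2 (0.0813) and with limma-voom (0.0558).

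Upstream of AP-1, edgeR called 0 of 30 tested genes of the RAS and MAP kinase cascade, and 3 had an unadjusted p below 0.05. DESeq2 and limma-voom each called 0, and the median log2 fold change was -0.00936. MAP2K4, a JNK-activating kinase, had 0.51 ± 0.18, MAPK11, p38 beta, 0.73 ± 0.27 and RPS6KA4, the kinase MSK2, -0.38 ± 0.16. Among all tested genes edgeR called 0.877% and gave 22.1% an unadjusted p below 0.05, and DESeq2 called 1386 of 13993. Of 15 tested MAP kinase phosphatase and Sprouty genes 1 rose and 0 fell (edgeR; 3 at an unadjusted p below 0.05, 2 by DESeq2 and 0 by limma-voom), against 0.877% of all tested genes called. That gene was DUSP10, a phosphatase of JNK and p38, at 93.9 and 76.1 CPM in CELF2 knockdown, against 26.4 and 23.3 CPM in control shRNA (log2 fold change 1.77 ± 0.19, SE; adjusted p = 0.0483, edgeR). DUSP8, a JNK phosphatase, had 3.11 and 3.37 CPM in CELF2 knockdown and 0.536 and 0.832 CPM in control shRNA (adjusted p = 0.0610), and DUSP1 had a log2 fold change of 0.93 ± 0.35. The call of DUSP10 was lost without control replicate 1 (adjusted p = 0.138), without knockdown replicate 2 (0.0645) and with limma-voom (0.0558).

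Of 14 tested factors that act on promoters of AP-1 genes, edgeR called 0 and gave 1 an unadjusted p below 0.05. DESeq2 and limma-voom each called 0, and the median log2 fold change was -0.20. STAT3, an activator of FOS, had 0.42 ± 0.17, MEF2D, an activator of JUN, 0.53 ± 0.25 and ELK3, a ternary complex factor, -0.46 ± 0.22. For this and the next 2 lists, edgeR called 0.877% of all tested genes and gave 22.1% an unadjusted p below 0.05. DESeq2 called 1386 of 13993 genes. Of 20 tested cofactors and turnover factors of AP-1 proteins, edgeR called 0 and gave 1 an unadjusted p below 0.05. DESeq2 called 1 of the 20 and limma-voom 0, and their median was -0.06. TEAD1, a DNA-binding partner of YAP that shares enhancers with AP-1, had -0.79 ± 0.23, TEAD4 -0.48 ± 0.23 and SMAD3 0.34 ± 0.19. Of 17 tested genes of AU- or GU-rich mRNA decay, edgeR called 0 and gave 6 an unadjusted p below 0.05. DESeq2 called 1 of the 17 and limma-voom 0, and their median was -0.14. HNRNPD, which encodes AUF1, had -0.69 ± 0.16, ELAVL1, the mRNA-stabilizing HuR, -0.57 ± 0.16, and ZFP36L2, a decay factor, 0.59 ± 0.19. Both knockdown libraries were below both control libraries in 8 decay genes and above in 3, against 27.8% and 27.1% of all tested genes. HNRNPD, ELAVL1, ELK3 and SMAD3 overlap exons of antisense genes, so their counts are uncertain.

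Of 26 other immediate early genes tested, edgeR called 0 and gave 5 an unadjusted p below 0.05. DESeq2 called 1 of the 26 and limma-voom 0, and their median log2 fold change was 0.28. BTG2, an antiproliferative gene, had 32.5 and 33.5 CPM in CELF2 knockdown and 16.9 and 16.6 CPM in control shRNA (log2 fold change 0.98 ± 0.19; adjusted p = 0.0576). GADD45B, a growth arrest gene, had 0.69 ± 0.20. The share of all tested genes called by edgeR was 0.877%, and 22.1% had an unadjusted p below 0.05. DESeq2 called 1386 of 13993 genes in all. In 19 of these 26 genes knockdown replicate 2 held the highest value, as it did for ATF3 and FOSB, whereas this library was highest for 22.5% of all tested genes. JUNB, JUN, JUND and FOSL2 were highest in knockdown replicate 1.

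Among 29 tested genes known as AP-1 targets in keratinocytes or carcinoma cells, edgeR called 0 and gave 7 an unadjusted p below 0.05. DESeq2 called 4 of these 29 genes and limma-voom 0, and their median log2 fold change was 0.65. In 9 of them (31.03%) both knockdown libraries were above both control libraries, against 27.1% of all tested genes. Of all tested genes 0.877% were called by edgeR and 22.1% had an unadjusted p below 0.05, and DESeq2 called 1386 of 13993. S100A9, a subunit of calprotectin, had 99.1 and 134 CPM in CELF2 knockdown, against 58.0 and 50.4 CPM in control shRNA (log2 fold change 1.10 ± 0.20; adjusted p = 0.0534). HMOX1, heme oxygenase, had 1.35 ± 0.35 and S100A8, the partner of S100A9, 1.82 ± 0.50.

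**Figure D4:**
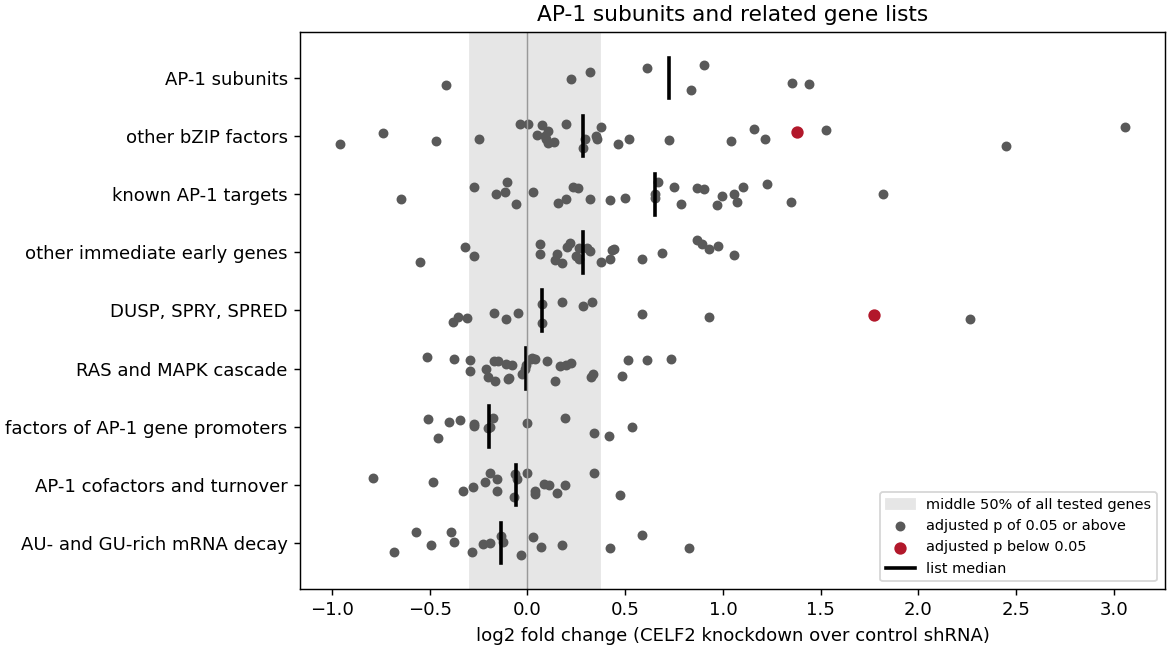
Log2 fold change (CELF2 knockdown over control shRNA) of each tested gene in the AP-1 subunit list and 8 related lists, with list medians as black bars and the middle 50% of all tested genes in grey. The 2 red points, CEBPD and DUSP10, are the genes with an adjusted p below 0.05 in these lists, and the median of the AP-1 subunits lies at 0.72.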

How the data were processed

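PolyA RNA of 4 SCC13 libraries (TruSeq kit, per the labels) was used, grouped by sample title. The authors deposited raw read counts per Ensembl gene, and every one of the 60617 rows names a gene. The submitters' processing notes name HISAT2, edgeR and GRCh38 without versions. How reads were counted, with which annotation and strand setting, is not stated in the sources used here. Genes were tested with edgeR 4.0.16 (quasi-likelihood, R 4.3.3) after TMM normalization and filterByExpr with a minimum count of 10, and p-values were adjusted by Benjamini-Hochberg over the 15170 tested genes, at 0.05. The edgeR procedure was tested on counts simulated with the same dispersion for every gene. It was thus not tested with spreads that differ between genes, as they do here. CPM values use TMM-scaled library sizes, and SEs come from the fit. Total counts of 17649090 to 27898889 per library, with 2 libraries per group, set the precision. The common biological coefficient of variation was 21.6%. Alternatives used DESeq2 1.42.0, limma 3.58.1 (voom), other scalings, no filter, GC offsets (mgcv 1.9.3), a replicate block and each library left out. GC content, exon lengths, positions, exon overlaps and 3′ UTRs came from GENCODE v29, where 15098 tested genes had a GC value (longest coding transcript first). LORICRIN was matched by gene ID as LOR.

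The subunits and the lists were chosen with earlier results of these data known. Named genes were all 8 subunits and, per list, members past the threshold and the 3 with the smallest p; KRT5, KRT14, HOOK2 and JDP2 were added for context. Some genes that this rule or the marker lists name are not reported here.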

Additional observations from a re-analysis of the deposited data

How the results depend on the processing

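JUNB, JUN, JUND and FOSL2 kept a positive log2 fold change in all 12 alternatives (JUNB 1.08 to 1.68, JUN 0.64 to 1.06, JUND 0.52 to 1.12, FOSL2 0.33 to 0.98), while their side of the threshold moved. JUNB had an adjusted p from 1.65e-09 to 0.184 and passed in 9 alternatives; JUN and JUND passed in 4. The number of subunits called was 0 in edgeR's quasi-likelihood test and with limma-voom, 1 with DESeq2 size factors, total counts or GC correction (JUNB), 3 with DESeq2, 5 with no filter on low counts, and 0 to 2 with a library left out. Genes called over the whole table numbered 133 of 15170 tested. Of the same 15170, 207 were called with DESeq2 size factors, 416 with total counts and 295 with GC correction. Limma-voom called 0 of 15170 (smallest adjusted p 0.0558, 3402 at an unadjusted p below 0.05). With no filter 2139 of 25916 tested genes were called, and with DESeq2 1386 of 13993. Why the called genes differed in number was not tested. With a library left out they numbered 0 (without control replicate 1, 1724 at an unadjusted p below 0.05) to 616 (without control replicate 2), with 7 without knockdown replicate 2 and 365 without knockdown replicate 1. Of the called genes 69.2% were higher, and 48.5% after GC correction. With a library left out, 4 subunits changed sign: FOS ranged from -0.16 to 1.08, FOSB from -0.50 to 1.59, FOSL1 from -1.33 to 0.28 and ATF3 from -0.72 to 2.27. Fits without a library leave 1 group with 1 sample, which is assumed to vary like the other group.

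The replicate numbers in the labels name no shared culture or day, and with 2 pairs they do not establish pairing; deviations from the group means correlated at 0.203 across genes between same-numbered libraries. With the replicate number as a block, 1579 of 15170 tested genes and 3 subunits (JUNB, JUN and JUND) were called. With the block and GC correction 2300 of 15170 genes and 5 subunits were called (FOSL1 lower at -0.69, and FOSL2, JUN, JUNB and JUND higher). The lowest count of a subunit was 59 (ATF3 in knockdown replicate 1), and depth was not varied.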
